A study of Mus musculus with 4 samples.

Results

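Collagen chains were followed across 4 one-color Agilent arrays of NIH-3T3:Per2-Luc cells, a mouse embryonic fibroblast line that carries a luciferase reporter driven by the *Per2* promoter. Every array probe whose gene name was Col, a number, the letter a and a number was taken, which gave 68 probes for 43 genes out of 22289 named genes on the array. Each gene was represented by its brightest probe. The cells of 3 arrays had received the cOS-pulse, 5 mM H2O2 for 10 min, and were collected 4 h, 20 h or 32 h later, while the control cells had 0 mM H2O2 and a change to fresh medium, with 4 h on their label. All cells were of the same reporter line. The study used these arrays to follow genes early after the pulse and across the circadian cycle that follows it. Each condition had 1 array, all 4 arrays were on 1 slide, and no control was collected at 20 h or 32 h among the arrays analysed here, so no test was run and condition, array position and hour in culture cannot be told apart.

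Collagens are secreted proteins built from alpha chains that wind around each other into a triple helix. Fibroblasts are the main makers of the fibrillar types I, III and V, which form the tensile fibrils of connective tissue. Type IV chains form the sheet-like network of basement membranes, and the remaining types include the beaded microfibrils of type VI, the FACITs that sit on fibril surfaces, the anchoring fibrils of type VII, and membrane-spanning collagens. The 43 genes were sorted into 11 fibrillar, 6 type IV and 26 other genes.

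The arrays read 39429 probes, of which 52.7% to 59.1% were well above background, the scanner software's call that a spot exceeds its surroundings. A level here is the log2 signal of a probe minus the 75th percentile of its array. A difference between arrays is a log2 ratio of such levels, and its spot error is the uncertainty that the scanner software gives for both spots, with a median of 0.21 for the collagen ratios. It says nothing of the spread between cultures. Levels of different probes were not set against each other, except to choose the brightest probe of a gene and in the summed levels of marker lists. The fibroblast identity of the cells was checked on 10 markers, of which 9 were well above background on every array and *Fap* on none. Of 5 epithelial markers, *Krt14* was well above background on all 4 arrays and *Epcam*, *Cdh1* and *Ocln* on none. Of 5 endothelial markers, *Kdr* and *Pecam1* were on all 4 and *Tek* and *Emcn* on none. Of 5 leukocyte markers, *Itgam*, *Cd3e* and *Cd68* were on all 4 and *Ptprc* and *Emr1* on none. A summed level here is the log2 of the levels of a list added up on the linear scale. It was highest at 4 h for each of these 3 lists, with ranges of -2.73 to -2.04, 1.69 to 2.10 and 3.56 to 5.03. *Cd68* and *Cdh5* had log2 ratios of 2.08 and 1.87 at 4 h. The summed level of the fibroblast markers lay between 8.91 and 9.10, most of it from *S100a4*.

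Of the 43 collagen genes, 22 (51.2%) were well above background on all 4 arrays, against 55.3% of all named genes. These were 6 of 11 fibrillar genes (*Col1a1*, *Col1a2*, *Col3a1*, *Col5a1*, *Col5a2* and *Col27a1*), 5 of 6 type IV genes (all but *Col4a3*) and 11 of 26 other genes. *Col10a1*, a short-chain collagen of growth-plate cartilage, was well above background in the control and at 4 h. A further 8 genes were so at 4 h alone, and 12 genes on no array (*Col4a3*, *Col6a4*, *Col6a5*, *Col6a6*, *Col8a2*, *Col11a1*, *Col13a1*, *Col15a1*, *Col19a1*, *Col24a1*, *Col25a1* and *Col28a1*).

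The DNA before the start of 4 of these genes is shown, for the chains whose values differ most in kind: *Col1a2* and *Col3a1*, made throughout by these cells, *Col7a1*, which peaked at 4 h, and *Col20a1*, seen at 4 h alone. The RefSeq promoter table (GRCm38.p6) held a window for 35 of the 43 genes. Each line gives the 250 bases before the RefSeq start, 5′ to 3′ on the gene's strand, with matches to the searched motifs in capitals.
Col1a2: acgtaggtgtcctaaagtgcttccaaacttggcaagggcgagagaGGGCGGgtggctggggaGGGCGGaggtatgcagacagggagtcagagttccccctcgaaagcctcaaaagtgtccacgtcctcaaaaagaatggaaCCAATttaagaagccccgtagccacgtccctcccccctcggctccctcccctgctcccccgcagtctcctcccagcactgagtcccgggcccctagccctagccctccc
Col3a1: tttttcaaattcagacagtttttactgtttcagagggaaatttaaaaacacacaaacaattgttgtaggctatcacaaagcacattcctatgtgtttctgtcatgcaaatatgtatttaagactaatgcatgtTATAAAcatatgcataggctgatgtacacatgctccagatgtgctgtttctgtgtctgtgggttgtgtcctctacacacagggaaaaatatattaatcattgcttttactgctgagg
Col7a1: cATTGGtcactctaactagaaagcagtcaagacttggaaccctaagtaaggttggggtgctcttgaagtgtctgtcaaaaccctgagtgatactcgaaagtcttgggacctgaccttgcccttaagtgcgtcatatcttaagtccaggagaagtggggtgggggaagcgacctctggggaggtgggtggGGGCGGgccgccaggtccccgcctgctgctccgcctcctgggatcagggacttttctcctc
Col20a1: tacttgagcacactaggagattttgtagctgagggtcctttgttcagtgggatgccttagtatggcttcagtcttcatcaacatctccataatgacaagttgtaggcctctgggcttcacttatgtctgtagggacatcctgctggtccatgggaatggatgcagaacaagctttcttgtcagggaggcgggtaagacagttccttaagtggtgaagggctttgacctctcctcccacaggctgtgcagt
The windows lie at chr6:4505368-4505617 (*Col1a2*), chr1:45311288-45311537 (*Col3a1*), chr9:108953336-108953585 (*Col7a1*) and chr2:180986285-180986534 (*Col20a1*), all on the + strand, and overlap no other RefSeq gene. The motifs were searched on both strands: CCAAT (the NF-Y box), TATAAA (the TATA box), GGGCGG (the GC box bound by Sp1), CACGTG (the E-box of clock proteins), GAANNTTC (adjoining heat shock units) and TGANTCA (AP-1). Over all 32851 RefSeq windows of this length, 33.8% held CCAAT, 12.4% TATAAA, 32.7% GGGCGG, 6.02% CACGTG, 6.69% GAANNTTC and 6.75% TGANTCA. *Col1a2* held a CCAAT match at -109 from the start and a pair of GC boxes, *Col3a1* 1 TATAAA match, *Col7a1* 1 CCAAT and 1 GC box match, and *Col20a1* none. Among the 35 collagen windows, 12 held CCAAT, 5 TATAAA, 21 GGGCGG, 1 TGANTCA (*Col6a1*), 1 GAANNTTC (*Col4a5*) and 0 CACGTG. A match describes letters in a window and not a bound site.

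Most collagen chains that the fibroblasts made were modestly lower after the cOS-pulse, with the measured fibrillar genes furthest below the control. At 4 h, 20 of the 23 genes measured on both arrays lay below the control, against 44.3% of all named genes, and this count was between 18 of 24 and 22 of 23 under 7 other ways of scaling or correcting the signals. It was 20 of 31 with a looser detection flag (positive and significant signal) and 26 of 43 with no detection filter, and the 7 further genes that have only a bound at 4 h, all above the control, are not in it. At 20 h, 18 of 22 lay below the control, against 46.8% of all genes, but 12 of 22 without any scaling. At 32 h, 18 of 22 did, against 46.8% of all genes, 14 of 22 without scaling or with spike-in scaling, and 24 of 43 with no detection filter. Each share of all genes belongs to the first count of its time and is not given for the other settings. The median of all genes moved with the scaling too. It was -0.30 at 4 h with spike-in scaling, where 22 of 23 collagen genes lay below the control. Without scaling it was 0.35 at 20 h and 0.20 at 32 h. The median log2 ratio of the collagen genes was -0.38 at 4 h, -0.48 at 20 h and -0.26 at 32 h, beside 0.10, 0.02 and 0.02 for all named genes. A scaling that shifts every gene alike leaves the distance to the median of all genes as it is, and that distance was -0.48, -0.50 and -0.28. The RNA came from whole cultures, so fewer cells making a chain and less of its RNA per cell cannot be told apart. Of the 9 fibroblast markers measured, *Pdgfra*, *Pdgfrb*, *Fn1* and *Prrx1* were lower at 4 h as well, with log2 ratios of -1.55, -1.35, -0.68 and -0.66, and *Thy1* was at -1.39 at 20 h, while *Vim*, *S100a4*, *Ddr2* and *Twist1* lay between -0.22 and 0.05 at all 3 times. Their part in the collagen values was not tested. The 3 comparisons use the same control array, so a deviation of that array would enter all of them.

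The number of collagen genes at least 2-fold from the control at 4 h varied with the scaling, more for lower than for higher genes. At 4 h, 31 collagen genes were well above background on at least 1 of the arrays, of which 2 were at least 2-fold lower (9.62% of all genes were) and 7 at least 2-fold higher (10.9% of all genes). Of these 7, 6 are lower bounds on chains that were near background in the control. With scaling by the median the same counts were 7 lower and 6 higher, where 17.3% and 5.96% of all genes were. Spike-in scaling gave 8 and 6 (18.4% and 5.61% of all genes), and no scaling 5 and 6 (15.1% and 6.77%). At 20 h, 4 of 23 genes lay at least 2-fold below the control, where 3.26% of all genes did, and 0 above it, where 1.34% did. At 32 h, 1 of 23 was lower (2.50% of all genes) and 0 were higher (2.16%). The 4 lower genes at 20 h lay close to 2-fold. Their number was 2 with scaling by the median (2.67% of all genes) and 1 with normexp background correction (1.99%). It was 0 with spike-in scaling or none (2.21% and 1.78% of all genes).

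**Figure D1:**
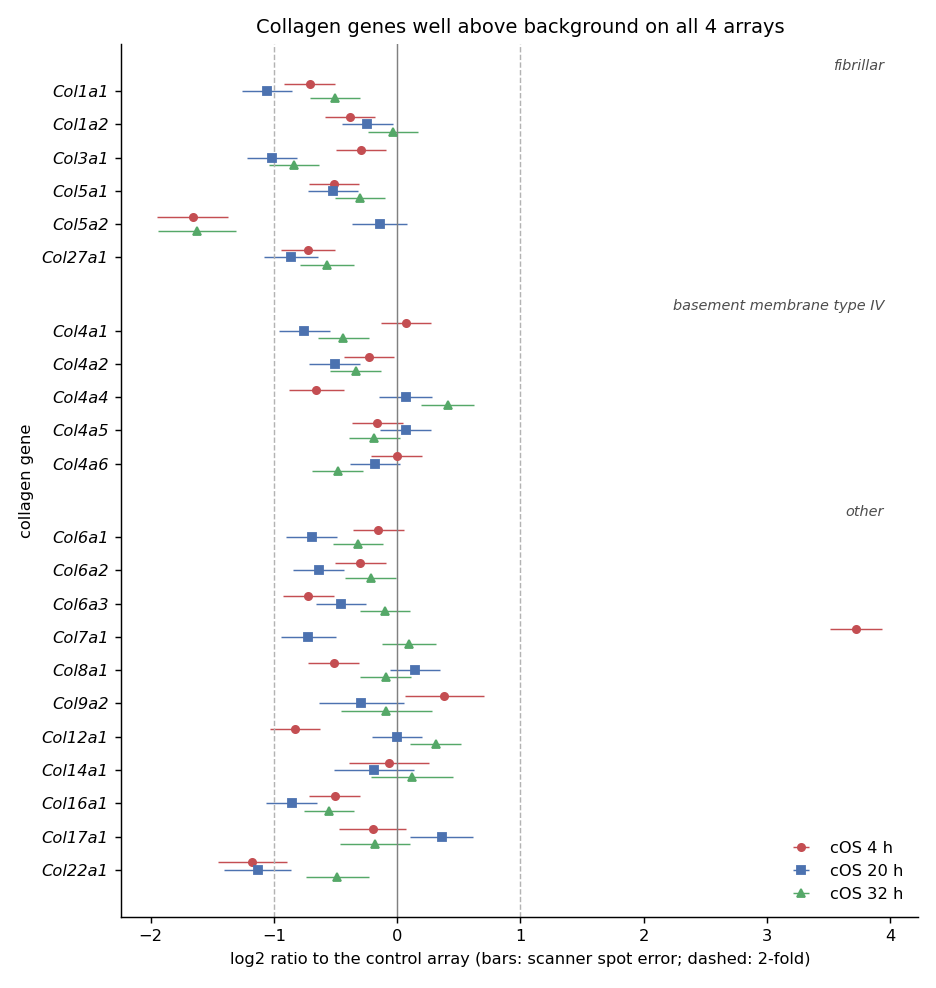
Log2 ratio to the control array (x axis) of the 22 collagen genes well above background on all 4 arrays (y axis), at 4 h (circles), 20 h (squares) and 32 h (triangles), with bars for the scanner's spot error and dashed lines at 2-fold. Most points lie left of 0, and *Col7a1* at 4 h (3.72) is the one point beyond 2-fold on the right.

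The fibrillar genes gave the lowest of the 3 class medians at 4 h, 20 h and 32 h. They did so under all 14 other settings that were tried as well, but several of these could not change the order. The 6 measured fibrillar genes had a median log2 ratio of -0.61 at 4 h, -0.69 at 20 h and -0.54 at 32 h. With this scaling each of the 6 was highest on the control array (without scaling *Col1a2* and *Col5a2* were not). The 5 type IV genes had medians of -0.16, -0.18 and -0.34. The other genes had medians of -0.40 (12 genes), -0.46 (11 genes) and -0.10 (11 genes). The ranges of the classes overlapped at every time, with measured fibrillar genes from -1.66 to -0.29 and type IV genes from -0.66 to 0.07 at 4 h. A further 3 fibrillar genes, *Col2a1*, *Col5a3* and *Col11a2*, have only lower bounds at 4 h, of 4.24-fold or more above the control with this scaling. With such bounds entered, the fibrillar median at 4 h was -0.38. With the median over all detected probes of a gene in place of the brightest, the type IV median at 4 h was 0.05, and with no scaling the type IV median at 20 h was 0.15. Scaling by the median, by commonly detected probes, by spike-ins or with none shifts all classes alike, as does the deposited table. Keeping flagged spots could not reorder the classes either, since no collagen spot was flagged. Settings that could reorder them included quantile normalization, normexp background correction, looser detection, choice of probe and bounds.

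**Figure D2:**
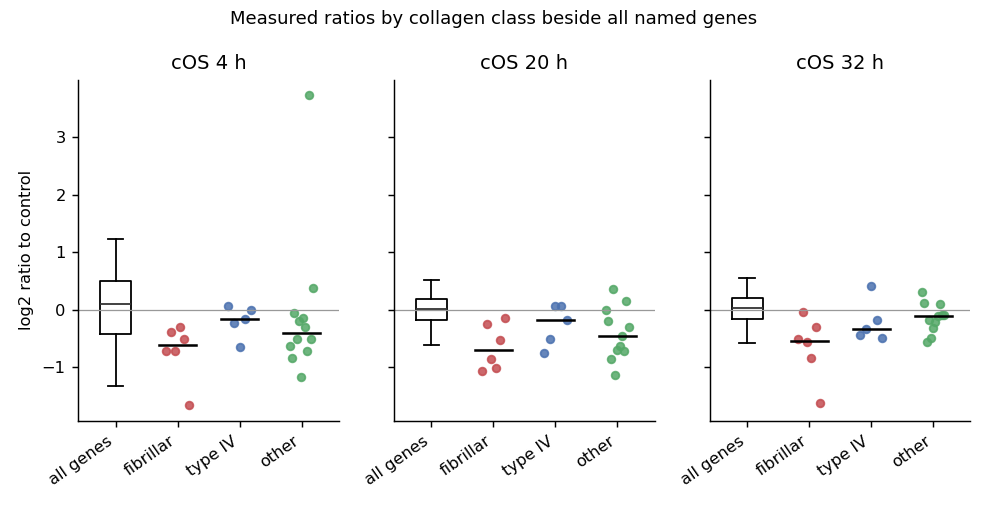
Log2 ratio to control (y axis) of the measured collagen genes by class (points, with the class median as a bar) at 4 h, 20 h and 32 h, beside a box of all named genes (median, quartiles and, as whiskers, the 5th and 95th percentiles). The measured fibrillar points lie below 0 in all 3 panels, and the type IV and other points spread to both sides.

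*Col1a1* encodes the alpha 1 chain of type I collagen, the main protein of connective tissue fibrils. Its levels were 4.26 in the control, 3.55 at 4 h, 3.20 at 20 h and 3.75 at 32 h. The control was highest and 20 h lowest, with log2 ratios of -0.71, -1.06 and -0.51, each ± 0.20 (spot error). The probe lies at chr11:94813115-94813174 (mm9). The ratio at 20 h was 2.08-fold and stayed below 0 under every scaling, between -1.07 and -0.72.

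*Col1a2*, which encodes the other chain of type I collagen, had levels of 6.98, 6.60, 6.74 and 6.94 on the control, 4 h, 20 h and 32 h arrays. Its ratios of -0.38 and -0.24 at 4 h and 20 h were small, and the one at 20 h was 0.09 with no scaling. The ratio at 32 h, -0.04, was within the spot error. At 20 h *Col1a1* was 0.82 further below the control than *Col1a2* on the log2 scale, with a spot error of 0.29 for that difference.

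*Col3a1*, the type III chain of pliable tissues, had levels of 0.32, 0.03, -0.70 and -0.52 in the same order. The 20 h and 32 h arrays lay well below the other two, with log2 ratios of -1.02 and -0.84 (each ± 0.20) after -0.29 at 4 h. *Col27a1*, a fibrillar chain best known from cartilage, had levels of -1.69, -2.41, -2.55 and -2.25 and was lower at all 3 times, by ratios of -0.72, -0.86 and -0.57.

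Type V collagen, which is buried in type I fibrils and sets their width, had chains that differed. *Col5a1* had levels of 2.52, 2.01, 2.0 and 2.22, close to each other at the 3 times after the pulse. *Col5a2* had levels of -2.48, -4.14, -2.62 and -4.10, so that 4 h and 32 h were low and the control and 20 h were high. The *Col5a2* ratios were -1.66 ± 0.29 at 4 h (3.16-fold), -0.14 ± 0.22 at 20 h and -1.62 ± 0.31 at 32 h (3.08-fold). Its ratio at 20 h turned to 0.19 with no scaling and 0.06 with spike-in scaling. *Col5a1* was 1.15 above *Col5a2* in the ratio at 4 h and 1.32 above it at 32 h, with spot errors of 0.35 and 0.37, but 0.38 below it at 20 h, with a spot error of 0.30. *Col5a2* has 1 probe, at chr1:45431204-45431263 (mm9), its low values lie near the lowest detected levels (-4.94 at 4 h and -4.73 at 32 h), and with normexp background correction its ratios at 4 h and 32 h were -0.77 and -0.96.

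**Figure D3:**
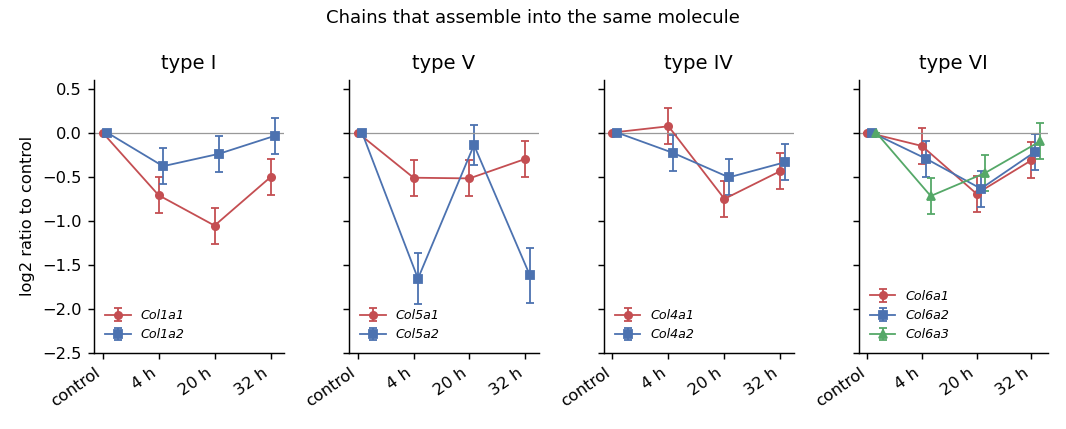
Log2 ratio to control (y axis, control set to 0) by array for chains that assemble into the same molecule, with bars for the scanner's spot error. The chains of types IV and VI stayed within 0.57 of each other. The *Col1a1* ratio minus that of *Col1a2* was -0.33 at 4 h, -0.82 at 20 h and -0.47 at 32 h. *Col5a2* dropped away from *Col5a1* at 4 h and 32 h.

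Among the type IV genes, *Col4a1* and *Col4a2* encode the chains of the common basement membrane network and lie head to head on the same chromosome. The *Col4a1* levels were 0.14, 0.21, -0.61 and -0.30 on the control, 4 h, 20 h and 32 h arrays. The array holds 10 spots of its probe, and their log2 ratio at 20 h had a mean of -0.75 with an SD of 0.05 over spots, from -0.85 to -0.71, which shows how closely repeat spots of 1 hybridization lie. At 4 h the mean was 0.07 with an SD of 0.05 over spots, and it was negative under scaling by the median, by commonly detected probes, by spike-ins or with none. The *Col4a2* levels were 0.37, 0.14, -0.14 and 0.03, with ratios of -0.23, -0.51 and -0.34. The *Col4a1* ratio lay 0.30 above that of *Col4a2* at 4 h, just outside the spot error of 0.29, and 0.24 and 0.10 below it at 20 h and 32 h, within that error.

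*Col4a5* and *Col4a6*, the X-linked pair, had ratios between -0.48 and 0.07. The *Col4a5* levels were -0.91, -1.07, -0.84 and -1.09, all 4 close together. The *Col4a6* levels were -0.74, -0.74, -0.92 and -1.22, lowest at 32 h with a ratio of -0.48 ± 0.21. A second, dimmer *Col4a6* probe gave 0.04 at 32 h, so that this lower value was not shared by both probes. *Col4a4*, a chain of the kidney filter membrane, had levels of -1.94, -2.59, -1.87 and -1.53, lowest at 4 h. A second *Col4a4* probe moved the other way at 4 h, with a log2 ratio of 0.75 ± 0.32 against -0.66 ± 0.22, so the gene has no single direction at that time.

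The type VI genes, whose chains form beaded microfibrils around cells, were all below the control at 20 h. *Col6a1* had levels of 5.56, 5.41, 4.87 and 5.25, *Col6a2* had 0.99, 0.69, 0.35 and 0.77, and *Col6a3* had 3.91, 3.19, 3.45 and 3.81. With this scaling all 3 genes were highest on the control array, *Col6a1* and *Col6a2* were lowest at 20 h, and *Col6a3* was lowest at 4 h. The ratios at 20 h were -0.70, -0.64 and -0.46, each ± 0.20. A second, dimmer *Col6a2* probe gave -0.11 ± 0.22 at 20 h and 0.01 at 32 h, so the lower *Col6a2* value was not shared by both probes. The *Col6a3* ratio at 4 h, -0.72, lay 0.57 below that of *Col6a1*, with a spot error of 0.29. The *Col6a3* ratio at 32 h, -0.10, was positive with spike-in scaling or none. The related chains *Col6a4*, *Col6a5* and *Col6a6* were not well above background on any array.

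The FACIT genes did not move as one. *Col16a1* had levels of 5.67, 5.17, 4.82 and 5.12 and was lowest at 20 h, where its log2 ratio was -0.86 ± 0.20. Another pair of *Col16a1* probes gave -1.28 and -1.19 at 20 h, so all 3 detected probes lay below the control. *Col22a1*, a chain of tissue junctions, had levels of -3.04, -4.21, -4.17 and -3.52, low at 4 h and 20 h. Its ratios were -1.18 ± 0.28 at 4 h (2.26-fold) and -1.13 ± 0.27 at 20 h (2.19-fold), but -0.56 and -0.86 with normexp background correction. *Col12a1*, found on type I fibrils under tension, had levels of 0.84, 0.01, 0.83 and 1.15, so that 4 h alone was low, with a ratio of -0.83 ± 0.20. *Col14a1* and *Col9a2* were dim, with ratios from -0.29 to 0.38 and spot errors of 0.32 to 0.37. A second *Col14a1* probe was not well above background in the control or at 4 h and was at least 2.13-fold higher than the control at 20 h and 1.96-fold higher at 32 h, beside ratios of -0.19 and 0.12 on the first, so the gene has no single direction there.

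*Col8a1*, a short-chain collagen of vessel walls, and *Col17a1*, a membrane collagen of skin cells, had ratios between -0.51 and 0.36. *Col8a1* was lowest at 4 h, with levels of -0.94, -1.45, -0.79 and -1.03. *Col17a1* was highest at 20 h, with levels of -3.48, -3.68, -3.12 and -3.67 and a ratio there of 0.36 ± 0.25. *Col10a1* had levels of -3.94 and -4.58 in the control and at 4 h and was not well above background at 20 h and 32 h. Its bound at 20 h was at least 2.24-fold lower, but short of 2-fold with spike-in scaling (log2 ratio of -0.96).

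*Col7a1* was the chain with the largest measured ratio. It encodes the anchoring fibril protein that fastens the basement membrane of skin to the dermis. Its levels were -2.20 in the control, 1.53 at 4 h, -2.92 at 20 h and -2.10 at 32 h, and it was well above background on all 4 arrays. The 4 h array stood alone, with a log2 ratio of 3.72 ± 0.21 (13.2-fold higher), while 20 h lay below the control by a ratio of -0.72 ± 0.22 and 32 h was within the spot error at 0.10 ± 0.22. Under the other scalings the ratio at 4 h was at least 3.32 and that at 20 h stayed below 0. The probe, the only one for the gene, lies at chr9:108886861-108886920 (mm9), and the window before the *Col7a1* start held 1 CCAAT and 1 GC box match.

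Some chains were seen at 4 h alone. Of the 20 collagen genes whose brightest probe was not well above background in the control, at 20 h and at 32 h, 8 (40.0%) were so at 4 h, beside 14.3% of all named genes. *Col18a1* is among the 8, although its second probe was well above background in the control. Since these genes passed through the 4 h array only, they had to be higher there, and their ratios are lower bounds against the control.

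*Col20a1*, a FACIT, had a level of 1.08 at 4 h and of -4.95, -4.79 and -4.60 on the control, 20 h and 32 h arrays. The 4 h level was at least 57.2-fold higher than the control. A second *Col20a1* probe, at chr2:180752070-180752129 (mm9), had a level of 1.60 at 4 h and was at least 82.1-fold higher. The first probe lies at chr2:180750502-180750561. With normexp background correction the *Col20a1* log2 ratio at 4 h was 4.76, below the bound of 5.84 with the main scaling.

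*Col11a2*, a minor fibrillar chain of cartilage, had a level of -1.77 at 4 h and of -4.53, -6.24 and -5.64 elsewhere, and was at least 6.80-fold higher than the control at 4 h. *Col2a1*, the main collagen of cartilage, had -2.58 at 4 h against -6.65, -7.06 and -6.55, at least 4.52-fold higher. *Col5a3*, a minor type V chain, had -2.68 at 4 h against -7.00, -7.37 and -6.95, at least 4.24-fold higher. In each of these genes the 4 h array was the highest by over 2 log2 units, and the probe was not well above background on the others. The bounds of *Col11a2*, *Col2a1* and *Col5a3* were 2.77, 2.18 and 2.08 as log2 ratios. In that order they were 2.36, 1.77 and 1.68 with spike-in scaling and 1.63, 1.17 and 1.34 with normexp background correction.

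*Col18a1*, the multiplexin from which endostatin is cut, had a level of -2.71 at 4 h against -4.71, -5.29 and -5.48, and was at least 4.00-fold higher than the control. Its second probe gave a measured log2 ratio of 1.58 ± 0.33 (3.0-fold), below that bound. *Col9a3* and *Col9a1*, chains of the cartilage FACIT type IX, had levels of -3.56 and -4.33 at 4 h, with bounds of at least 2.30-fold and 1.35-fold above the control. As log2 ratios, the *Col18a1* and *Col9a3* values were 1.60 and 0.80 with spike-in scaling and 0.89 and 0.69 with normexp background correction. Under both settings *Col9a3* fell short of 2-fold. *Col23a1*, a membrane collagen, was above background at 4 h with a level of -4.86 that gave no bound. Markers of cartilage cells were read beside these genes. *Comp* was seen at 4 h alone and was at least 3.98-fold higher. *Acan* was well above background at 4 h and 20 h, *Sox9* on all 4 arrays, and *Matn1* and *Matn3* on none. The summed level of the 5 cartilage markers was 0.86, 1.55, -1.0 and -0.87 on the 4 arrays. Most of it came from *Sox9*, with levels of 0.81, 1.44, -1.18 and -1.04. The 4 h array also had the largest share of genes well above background, 64.3% against 57.9% to 59.9% on the other arrays. The part of either in the 4 h values was not tested.

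**Figure D4:**
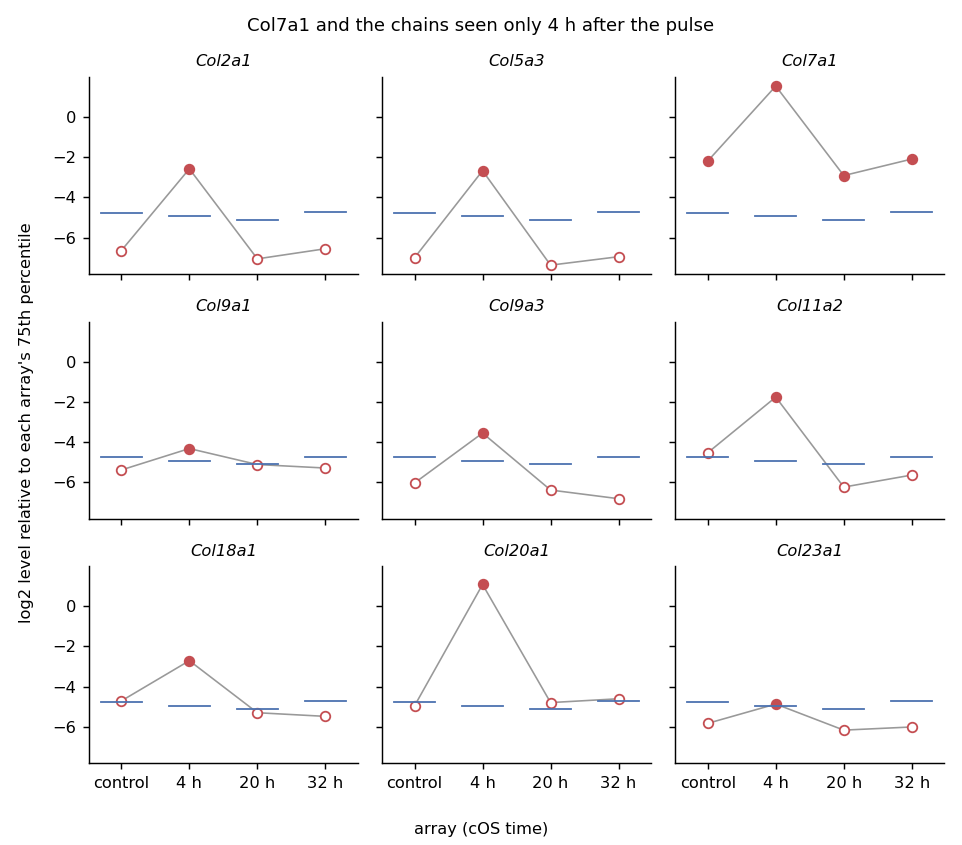
Log2 level relative to the 75th percentile of each array (y axis) of *Col7a1* and of the 8 collagen genes seen at 4 h alone, on the control, 4 h, 20 h and 32 h arrays (x axis). Filled points are well above background, open points are not, and short lines mark the lowest detected level of each array. The 8 genes were chosen for being detected at 4 h alone, and of them *Col20a1* stands furthest above that line at 4 h and *Col23a1* lies close to it.

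These chains were also compared by their place in the genome, a look chosen after the values were seen. In the RefSeq annotation of GRCm38.p6, 5 of the 43 collagen genes start within 10 kb of the end of a protein-coding gene on the same strand that was well above background on all 4 arrays. All 5 were at least 2-fold higher or seen only at 4 h: *Col7a1* behind *Uqcrc1*, *Col9a3* behind *Ogfr*, *Col11a2* behind *Rxrb*, *Col20a1* behind *Arfgap1* and *Col23a1* behind *Clk4*. These 5 are genes that prompted the look. Over all 2015 named genes placed in this way, 17.0% were higher or seen at 4 h only by the same rule, beside 9.89% of the other 16012. Of the other 38 collagen genes, 4 were (*Col2a1*, *Col5a3*, *Col9a1* and *Col18a1*). The upstream genes themselves had log2 ratios at 4 h of -0.44 for *Uqcrc1*, 0.72 for *Ogfr*, 0.16 for *Rxrb*, -0.16 for *Arfgap1* and 1.01 for *Clk4*, so that they lay on both sides of 0. The part of this position in the 4 h values was not tested.

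Between the late time points most collagen genes were lower at 20 h than at 32 h, in a comparison that does not use the control array. Of 22 measured genes, 17 lay lower at 20 h, against 49.2% of all genes, and this count was 17 under all 7 other ways of scaling or correcting the signals. The median log2 ratio of 20 h over 32 h was -0.30, and 0.0030 for all genes. The differences were small: 0 genes reached a 2-fold lower level at 20 h (1.85% of all genes did) and 1 a higher one, *Col5a2* at 1.48 ± 0.31 (0.769% of all genes). *Col1a1* had a ratio of -0.55, *Col12a1* -0.31 and *Col16a1* -0.30, each ± 0.20. Over the 22 genes on all 4 arrays, with the scaling by the 75th percentile, the control was highest in 13 and lowest in 0, and 20 h was lowest in 12. Among all 12323 named genes on all 4 arrays the control was highest in 16.5% and lowest in 24.1%, and 20 h was lowest in 19.2%.

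The genes that fold, process and bind collagen were read beside the chains. Enzymes and chaperones that modify and fold procollagen in the endoplasmic reticulum had medians nearer to those of all genes than the chains had. Of the 21 genes of this list, 18 were measured at 4 h, 10 below and 8 above the control. Their median log2 ratio was -0.01 (0.10 for all genes). At 4 h, 20 h and 32 h 0 were at least 2-fold lower, where 9.62%, 3.26% and 2.50% of all genes were. At the same times 0 were at least 2-fold higher, where 10.9%, 1.34% and 2.16% of all genes were. *Serpinh1*, the collagen chaperone Hsp47, had levels of 4.70, 5.15, 4.69 and 4.91, highest at 4 h with a ratio of 0.45 ± 0.20. *Ppib*, a prolyl isomerase, had a ratio of 0.36 at 4 h, and *Creb3l1*, a transcription factor for collagen genes, 0.41. With spike-in scaling the *Serpinh1*, *Ppib* and *Creb3l1* ratios were 0.05, -0.05 and 0.0024. *Leprel4* was at -0.33 at 4 h. *Fkbp14*, another isomerase, was at -0.28 at 4 h and 0.91 at 32 h.

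Of 15 genes that cleave procollagen or crosslink fibrils, 11 were measured, with 7 below the control at 4 h (median -0.18; 44.3% of all genes were) and 7 at 20 h (median -0.25; 46.8% of all genes). *Adamts14*, a procollagen N-proteinase, had ratios of -0.85 and -0.83 at 4 h and 20 h, and *Loxl3* -0.71 at 4 h. *Lox*, lysyl oxidase, named here after its values were seen, had levels of 0.68, 0.56, -0.11 and -0.26, lower at 20 h and 32 h. *Mep1a*, a procollagen-cleaving meprin, was the 1 gene of the list past 2-fold, at 1.02 at 20 h (0.73 with normexp background correction). At 20 h 1.34% of all genes were at least 2-fold higher. Of the small proteoglycans that coat fibrils, 3 of 10 were measured. *Bgn*, biglycan, had levels of 1.49, 1.03, -0.64 and -0.22, low at 20 h and 32 h with ratios of -2.13 and -1.70. *Dcn* and *Lum* had ratios between -0.28 and 0.42, some of which changed sign with the scaling.

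Basement membrane proteins other than collagen had a median log2 ratio of -0.05 at 4 h over 10 measured genes of 15. At 4 h 0 of these proteins were past 2-fold (9.62% of all genes were lower and 10.9% higher). *Hspg2*, perlecan, was lowest of them at 4 h (-0.95 ± 0.20) and *Nid1*, nidogen, highest (0.69 ± 0.20). Among 8 measured collagen receptors of 10, *Itga10*, an integrin chain that binds collagen, was the 1 past 2-fold at 4 h. Its levels were -3.13, -0.36, -3.11 and -2.73, with a ratio of 2.77 ± 0.23 at 4 h, where 10.9% of all genes were at least 2-fold higher. The tyrosine kinase receptor *Ddr1* had ratios of -0.70, -0.91 and -0.84.

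Of 24 genes that regulate collagen transcription, 2 lay at least 2-fold below the control at 4 h (9.62% of all genes did) and 2 at least 2-fold above it (10.9%). At 20 h 4 lay at least 2-fold below it (3.26% of all genes) and at 32 h 3 (2.50%). *Ctgf*, a matricellular protein induced by TGF-beta, had levels of -0.05, -4.28, -3.01 and -3.27, high in the control alone, with ratios of -4.22 ± 0.28, -2.96 and -3.22. *Tgfb3* had a ratio of -2.03 at 4 h and *Ets1* one of 1.09, which was 0.69 with spike-in scaling and 0.81 with none and so no longer past 2-fold. *Skil* and *Smad4* had ratios of 0.87 and 0.74 at 4 h and *Mkl1* one of -0.64. The next genes are named after their values were seen. *Scx*, a tendon transcription factor, was not well above background in the control, and its 4 h level exceeded it at least 15.8-fold. *Sox9*, the activator of cartilage collagen genes, had levels of 0.81, 1.44, -1.18 and -1.04, with ratios of 0.63 at 4 h and -1.99 at 20 h. Also at 20 h, *Smad7* had a ratio of -1.32 and *Tgfb2* one of -1.04, which were -0.99 and -0.70 with no scaling. The subunits of NF-Y, *Nfya*, *Nfyb* and *Nfyc*, which bind CCAAT, had ratios of 0.62, -0.05 and 0.22 at 4 h, the last of them -0.18 with spike-in scaling.

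**Figure D5:**
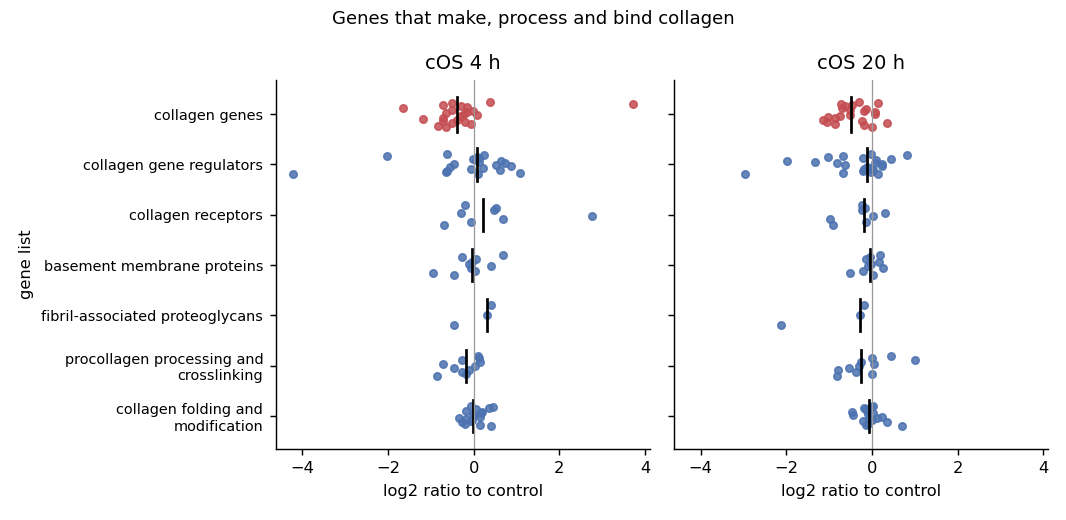
Log2 ratio to control (x axis) at 4 h and 20 h of the measured genes of 6 lists and of the collagen genes (y axis), with the list median as a bar. The collagen genes have the lowest median of the 7 sets in both panels, and the folding and modification list centres near 0.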

How the data were processed

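Total RNA of NIH-3T3:Per2-Luc cells was labelled with Cy3 and hybridized to 4 one-color arrays on 1 slide. The authors deposited the spot intensity given by Agilent Feature Extraction 10.7.3.1 (per the labels), with background subtracted, and a table in which each signal is the same intensity divided by 1 constant per array, which was checked over 44397 spots. Probe positions are those of the array annotation (mm9).

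From the deposited intensities, the log2 value was averaged over the unflagged spots of each probe and centred on each array's own 75th percentile. A probe counted as well above background when at least 50% of its spots were. No collagen spot was flagged and no spot was saturated. A ratio was measured where both arrays were above background. Where 1 was, the brighter level over the higher of the dim level and the lowest detected level of that array gave a bound. Each bound holds for the scaling it was taken with. Medians use measured ratios, and counts at 2-fold use bounds too. The brightest probe was the one with the highest mean over the 4 arrays. Names were matched to RefSeq symbols and synonyms (GRCm38.p6) for 31241 of 39429 probes, and the 43 collagen names all matched.

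The collagen genes, their classes and the lists of partner and marker genes were chosen with earlier results of these data known. Every collagen gene is accounted for, those at least 2-fold from control in full. Of each partner list at most 6 genes with the largest ratio at 4 h were to be named, and exceptions are marked. No p-value was computed, since each condition had 1 array, and precision is limited by having 4 arrays. SAM, which the study names, was not run. A simulation of the 4 h comparison with 39428 probes, drawn around control levels, recovered 200 of 200 probes changed 4-fold. The changed probes were taken from the brighter detected probes of the control, with small added noise. Detection calls were copied from the control to every simulated array. The simulation therefore did not cover dim chains, bounds or changes in detection. Alternatives covered scaling, background (normexp with an offset of 50), detection, flagged spots, choice of probe, threshold, classes and source table. Added after the values were seen were medians with bounds and medians over genes on all 4 arrays. Calculations used Python 3.11.15, numpy 2.4.6, pandas 2.3.3 and, for normexp, limma 3.58.1 in R 4.3.3.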

Additional observations from a re-analysis of the deposited data

Results flagged for a closer look

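*Col7a1* was set apart because its ratios to the control had opposite signs at different times. Its log2 ratio was 3.72 at 4 h and -0.72 at 20 h, with 1 array behind each value, and the difference was not tested.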

How the results depend on the processing

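Each median, count and gene ratio was recomputed under the alternatives, and a value was called moved when it changed by more than the median spot error of 0.21, or a count by more than 1.5 times. Of 352 recomputed medians and counts 299 were not moved, and of 1264 recomputed gene ratios 1097 were not. These totals include settings that could hardly move a value. Flagged spots kept and the deposited table left 98 gene ratios each unmoved, and dropping bounds left 89. No scaling moved 53 gene ratios and left 45. No gene at least 2-fold from control changed sign. Scaling by 1 constant per array shifts all genes alike: the median of all named genes at 4 h went from 0.10 to -0.26 with scaling by the median, -0.02 with the 75th percentile of commonly detected probes, -0.30 with spike-ins and -0.18 with none, and at 20 h from 0.02 to 0.13, 0.22 and 0.35 with the median, spike-ins and none. Quantile normalization moves genes unequally, and gave -0.06 for that median at 4 h, with a collagen median minus it of -0.51 against -0.48. No paired analysis was possible because each condition had 1 array. The spot error and the 10 repeat spots cover the hybridization only, and dim chains were the least stable.

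At 4 h the median of all measured collagen genes became -0.74 with scaling by the median, -0.79 with spike-ins and -0.66 with none. In the same order the fibrillar median became -0.97, -1.02 and -0.89, the type IV median -0.52, -0.57 and -0.44, and the median of the other genes -0.76, -0.81 and -0.68. The fibrillar median at 4 h was -0.29 without a detection filter and -0.38 with bounds entered. The type IV median was 0.045 with the median over detected probes. The median of the other genes was -0.16 with normexp, -0.11 without a detection filter, -0.064 with the flag for positive and significant signal and -0.18 with bounds entered. At 20 h, with no scaling, the median of all measured collagen genes was -0.15, that of the fibrillar genes -0.36, of type IV 0.15 and of the other genes -0.13, and the fibrillar median was -0.41 without a detection filter. At 32 h the fibrillar median was -0.30 without a detection filter.

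The share of all genes at 2-fold under the same setting is given in brackets, and at other thresholds it was not computed. Genes at least 2-fold lower at 4 h numbered 7 with scaling by the median (17.3%), 8 with spike-ins (18.4%), 5 with none (15.1%) and 0 with normexp (6.11%). They numbered 8 at a threshold of 1.5-fold and 1 at 3-fold. Genes higher at 4 h numbered 11 without a detection filter (21.2%), 11 with the flag for positive and significant signal (16.7%) and 1 with bounds dropped (6.96%). Genes lower at 20 h numbered 2 with scaling by the median (2.67%), 0 with spike-ins (2.21%), 0 with none (1.78%) and 1 with normexp (1.99%). They numbered 10 at 1.5-fold and 0 at 3-fold. For looser detection the share is given first with no filter and then with the flag. At 32 h the lower genes numbered 0 with normexp (1.29%), 3 at 1.5-fold and 4 with either looser detection (7.48% and 5.83%). The higher genes there numbered 2 with either looser detection (6.71% and 5.22%). For 20 h over 32 h the lower genes numbered 4 with either looser detection (6.99% and 5.50%) and 2 at 1.5-fold. The higher genes numbered 0 with normexp (0.168%), 2 with either looser detection (3.48% and 2.74%) and 0 at 3-fold. The normexp offset by its construction pulls low signals together. The cause of the other moves was not tested.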
